A study of Mus musculus with 6 samples.

Results

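A set of 10 genes of the TNF receptor superfamily and its ligands were measured in sorted small-intestinal innate lymphoid cells. They were chosen by name: 7 receptors (Tnfrsf4, Tnfrsf9, Tnfrsf18, Tnfrsf25, Tnfrsf1b, Cd27 and Fas) and 3 ligands (Tnfsf4, Tnfsf10 and Fasl). All 10 were found among the 25075 gene symbols of the count table, and all 10 passed the filter on low counts. Each of the 6 libraries was a sort of 2000 small-intestinal Lin-CD90.2+KLRG1- cells from mice with a b6 background, and 2 ng of RNA entered Smart-seq2, which amplifies full-length cDNA. Both groups carried floxed Batf alleles. The 3 control mice lacked the PLZF-Cre transgene (Batf fl/fl PLZF-Cre-), and the 3 Batf-deficient mice carried it (Batf fl/fl PLZF-Cre+). Batf encodes an AP-1 family transcription factor. PLZF is a transcription factor of innate lymphoid precursors and of some T cells, so Cre is not restricted to group 3 innate lymphoid cells (ILC3s). Age, sex and litter were not given, and the comparison asks which transcripts of ILC3s differ with Batf.

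Ligands of this family act mostly as trimers, bound to a cell surface or shed from it, and cluster their receptors. Receptors such as OX40 (Tnfrsf4), 4-1BB (Tnfrsf9), GITR (Tnfrsf18), TNFR2 (Tnfrsf1b) and CD27 recruit TRAF adaptors and signal through NF-κB as costimulators of lymphocytes. Fas carries a death domain that assembles the caspase-8 complex, and DR3 (Tnfrsf25) carries a death domain but mainly costimulates. In intestinal ILC3s, the DR3 ligand TL1A promotes IL-22 production, and OX40 ligand (Tnfsf4) on these cells can costimulate T cells.

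Before the members are compared, the labels and the make-up of the libraries need to be stated. Total counts ran from 9080012 to 17334207 in the control and from 8228513 to 13615895 in the Batf-deficient libraries. Values are CPM, counts scaled to a common library size, with trimmed mean (TMM) factors unless another scale is named. Batf, the targeted gene, went against its label: it was at 15.2, 15.3 and 18.95 CPM under the control label and 38.3, 41.3 and 41.3 CPM under the Batf-deficient label (log2 fold change 1.29, SE 0.16, edgeR quasi-likelihood adjusted p = 1.70e-05). With the panel scaling described below, Batf was lower instead (-0.91, edgeR adjusted p = 0.000326). A gene-level count cannot tell floxed from remaining exons, and the groups are therefore called labelled control and labelled Batf-deficient throughout. Xist, the RNA of X inactivation, was at 0.902 ± 0.465 and 230 ± 50.2 CPM (SD, n = 3 each), so a difference in sex between the groups and the genotype cannot be told apart. Batf-deficient replicates 1 and 2 were closer to each other than other pairs (mean chi-square of 2.36 per gene, where sampling noise alone gives about 1, against 14.8 to 24.2 for the other pairs), and they were counted as separate samples.

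The labelled control libraries held far more RNA of other tissue. Pancreatic acinar markers (15 genes) summed to between 89094 and 94192 CPM there and to between 6.68 and 7.62 CPM in libraries labelled Batf-deficient, where defining markers such as Try4, Ctrc and Pnliprp1 had no count. Epithelial markers (17 genes) summed to between 14067 and 15741 against 481 to 553 CPM. The 13 ILC3 markers, all detected in both groups, summed to between 1437 and 1622 CPM in the labelled control and 10453 to 11877 CPM in those labelled Batf-deficient. Of these 13, 12 were higher and 1 lower with TMM factors, and 6 were higher and 3 lower with panel scaling. The 11 T cell markers, 8 higher and 1 lower with TMM factors and 5 higher and 3 lower with panel scaling, had sums from 316 to 342 and from 2150 to 2168 CPM. In bulk RNA, fewer cells of a type and less RNA per cell cannot be told apart. The comparisons of the members and of the other named genes are therefore also given on a panel of 15 lymphoid signalling genes (among them Thy1, Lck, Cd247 and Zap70), which sets the geometric mean of those genes equal in every library. Thy1 and Il7r are in both the panel and the ILC3 marker list, so the panel-scaled counts of that list are not independent of the scaling. Panel scaling moved the median log2 fold change of all genes from 0.02 to -2.18, and library totals in place of TMM factors moved it to -0.36. The panel genes themselves did not move as 1 block, with TMM-scaled values from 0.69 (Sh2d1a) to 3.63 (Cd247).

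**Figure D1:**
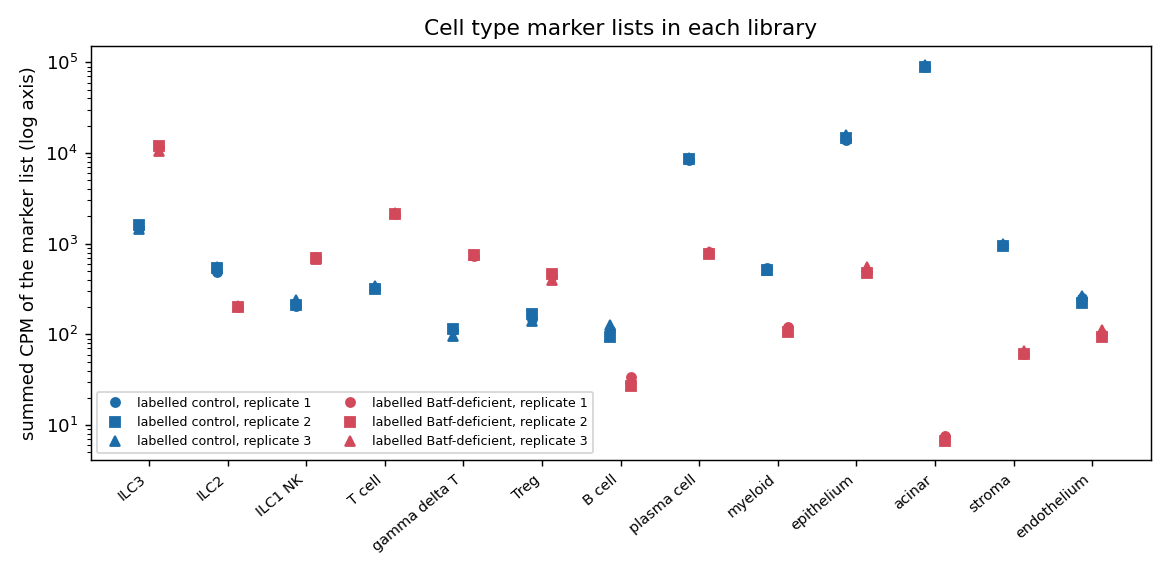
Summed CPM (TMM-scaled, log axis) of each cell type marker list in the 6 libraries, with blue for labelled control, red for labelled Batf-deficient and a symbol for each replicate. ILC3, ILC1/NK, T cell, γδ T cell and regulatory T cell lists were higher in the labelled Batf-deficient libraries on this scale, and ILC2, B cell, plasma cell, myeloid, epithelial, acinar, stromal and endothelial lists were higher in the labelled control. Most of the ILC2 sum was Areg (503 CPM in the labelled control against 175 CPM, group means). Of the 6 ILC2 genes tested, 3 were lower, 2 higher and 1 neither in the labelled Batf-deficient libraries with TMM factors. Other lists also held genes that went against their sum. Of 13 myeloid genes tested 2 were higher (Xcr1 and Zbtb46), as was 1 of 7 endothelial genes (Pecam1). Of 17 epithelial genes 1, Muc2, did not pass. Gzma of the ILC1/NK list and Sox13 of the γδ T cell list were lower.

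The members share positions that their names do not show. The receptors Tnfrsf1b, Tnfrsf9, Tnfrsf25, Tnfrsf4 and Tnfrsf18 lie within 10.8 Mb of chromosome 4 (145213463 to 156028895, mm10, GENCODE M21). Tnfrsf4 (156013843 to 156016612) ends 9.55 kb before Tnfrsf18 begins (156026164 to 156028895), on the same plus strand. Tnfsf4 (161395409 to 161418410) and Fasl (161780689 to 161788495) are 362 kb apart on chromosome 1. Tnfsf10 lies on chromosome 3 (27317028 to 27342427), Cd27 on chromosome 6 (125232622 to 125237010) and Fas on chromosome 19 (34290666 to 34327772). The 5 chromosome 4 receptors are the same 5 receptors that passed the test as higher with TMM factors below. Of 123 other genes tested in that interval, 38 were higher (30.9%), near the 30.2% of all genes. The 38 include Tnfrsf14 (154921933 to 154928563), another receptor of the family (log2 fold change 3.31, edgeR adjusted p = 0.00551). With panel scaling Tnfrsf14 was at 1.11 and did not pass (edgeR adjusted p = 0.262). Annotated genes on the opposite strand overlap 3 members: Camta1 overlaps Tnfrsf9, Gm16008 overlaps Tnfrsf18 and Vamp1 overlaps Cd27. These had 604, 119 and 388 counts over all libraries, and reads of such partners cannot be told apart where counting ignores strand.

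Promoter sequences from RefSeq (GRCm38.p6, 250 bases before to 50 bases after each annotated start) were found for 9 of the 10 members, with 11 starts. Since BATF binds AP-1 sites and these receptors signal through NF-κB, both motifs were searched on both strands. TGANTCA, the AP-1 motif, was present in 2 of the 11, against 7.81% of all 32851 promoters. The NF-κB consensus was present in 2 of the 11, against 5.80%. Shown are 3 promoters, with AP-1 and NF-κB matches in capitals: Tnfrsf9 (chr4:150927749-150928048, plus strand), which holds both, Fas (chr19:34290409-34290708, plus strand), which holds the AP-1 letters, and Tnfrsf4 (chr4:156013445-156013744, plus strand), the member with the largest fold change, which holds neither in this window.
Tnfrsf9: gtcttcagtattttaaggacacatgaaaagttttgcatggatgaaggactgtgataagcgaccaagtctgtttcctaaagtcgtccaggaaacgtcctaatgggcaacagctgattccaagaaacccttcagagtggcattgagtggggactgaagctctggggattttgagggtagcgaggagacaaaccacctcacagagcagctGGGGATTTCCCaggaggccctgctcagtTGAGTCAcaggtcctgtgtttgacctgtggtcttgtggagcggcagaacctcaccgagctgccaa
Fas: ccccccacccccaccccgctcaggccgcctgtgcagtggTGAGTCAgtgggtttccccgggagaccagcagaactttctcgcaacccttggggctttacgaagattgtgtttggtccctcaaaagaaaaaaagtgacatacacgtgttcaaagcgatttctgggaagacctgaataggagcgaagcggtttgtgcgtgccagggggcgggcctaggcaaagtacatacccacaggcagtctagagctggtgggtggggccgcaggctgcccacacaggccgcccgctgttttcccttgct
Tnfrsf4: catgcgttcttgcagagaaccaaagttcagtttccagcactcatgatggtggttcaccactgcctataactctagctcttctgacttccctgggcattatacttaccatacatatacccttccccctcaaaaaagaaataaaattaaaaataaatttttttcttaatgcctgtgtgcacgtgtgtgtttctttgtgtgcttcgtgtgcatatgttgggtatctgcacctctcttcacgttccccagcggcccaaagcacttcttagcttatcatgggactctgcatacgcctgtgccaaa
In the Tnfrsf9 promoter shown, the AP-1 match begins 15 bases before the start and 2 overlapping NF-κB matches begin 43 and 42 bases before it. The promoter of the other annotated start of Tnfrsf9 (chr4:150919905-150920204, plus strand) held neither motif. In Fas the AP-1 match begins 211 bases before the start. The other promoter with NF-κB letters was that of a start of Tnfrsf25. A match describes the letters and does not show binding.

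With TMM factors, 7 of the 10 members were higher in the labelled Batf-deficient libraries and none was lower. The costimulatory receptors Tnfrsf4, Tnfrsf9, Tnfrsf18, Tnfrsf25 and Tnfrsf1b rose 4.93- to 9.99-fold, the ligand Tnfsf4 rose 8.60-fold and Fasl rose 2.39-fold, whereas Cd27, Fas and Tnfsf10 did not pass the test. The same 15261-gene fit called 64.4% of all genes, 30.2% as higher and 34.1% as lower. No member was lower at an unadjusted p under 0.05 either, and DESeq2 gave the same 7 and 0. The groups did not overlap for 7 of the 10 members, close to the 71.2% of all genes tested. With panel scaling 2 members were higher (Tnfrsf4 and Tnfrsf25, against 2.45% of all genes) and 4 were lower (Cd27, Fas, Tnfsf10 and Fasl, against 83.7% of all genes). The median log2 fold change of the members was 2.31 with TMM factors and 0.12 with panel scaling, beside 0.02 and -2.18 for all genes. Both values are therefore given below, and the part of the tissue RNA in them was not tested.

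**Figure D2:**
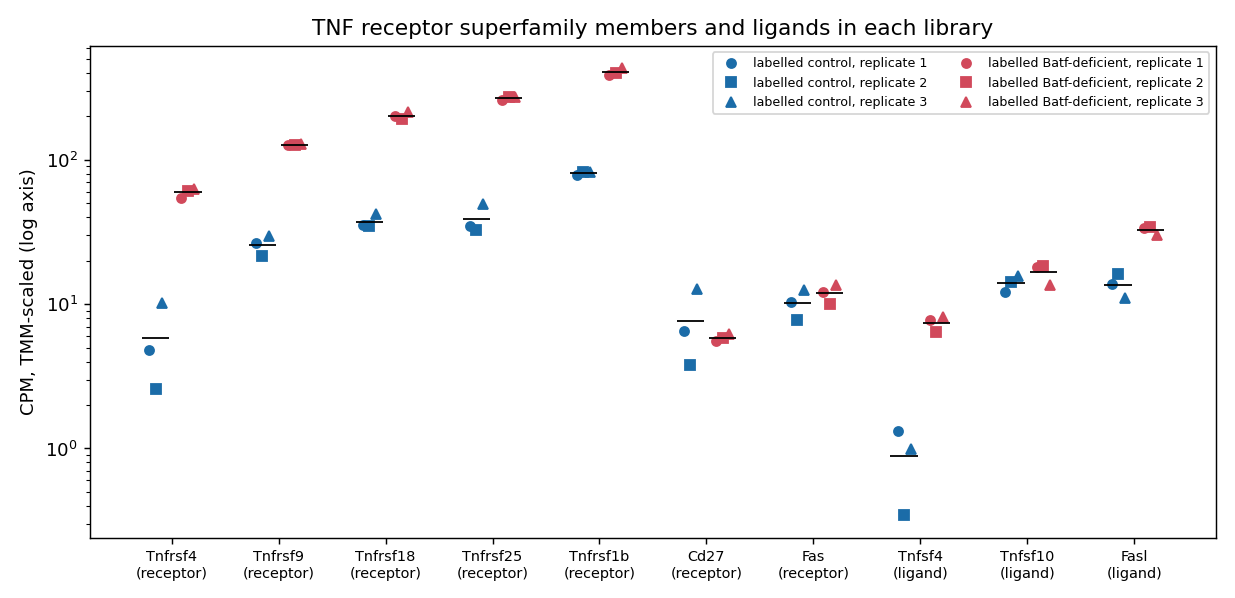
CPM (TMM-scaled, log axis) of each member in the 6 libraries, with a symbol for each replicate and a black line for each group mean. The groups are apart for Tnfrsf4, Tnfrsf9, Tnfrsf18, Tnfrsf25, Tnfrsf1b, Tnfsf4 and Fasl and overlap for Cd27, Fas and Tnfsf10; with panel scaling Fasl lies in the other direction.

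Tnfrsf4 encodes OX40, a receptor of activated lymphocytes. Control libraries had 4.81, 2.58 and 10.2 CPM, and labelled Batf-deficient ones 54.3, 61.1 and 63.1 CPM. The labelled control libraries were spread over a wide range, with replicate 3 the highest, and all lay below the other group. The log2 fold change was 3.32 (SE 0.42, edgeR adjusted p = 0.000152) and became 4.07 without control replicate 3. Panel scaling gave 1.16 (SE 0.36, edgeR adjusted p = 0.00885), with 10.1, 5.91 and 20.8 against 24.9, 29.5 and 28.9 panel-scaled CPM. Tnfrsf4 was thus higher under both scalings, and it kept its call with each of the 15 panel genes left out in turn (1.05 to 1.26). The panel genes themselves ran from -1.51 to 1.44 with panel scaling, with 6 higher, 5 lower and 4 neither. The panel-scaled value of Tnfrsf4 lay within that range. Leaving out 1 panel gene at a time cannot remove this spread.

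Tnfrsf25 encodes DR3, the receptor for TL1A. Its levels were 34.7, 32.9 and 49.2 CPM in the labelled control group and 262, 272 and 271 CPM in the other, without overlap. It rose by 2.78 on the log2 scale (SE 0.15, edgeR adjusted p = 1.15e-08), and panel scaling left 0.59 (SE 0.14, edgeR adjusted p = 0.00171). Like Tnfrsf4, it stayed higher with any 1 panel gene left out (0.48 to 0.69), and its panel-scaled value lay within the range of the panel genes. Its ligand gene Tnfsf15, which epithelial, myeloid and endothelial cells can make, went from 45, 73 and 204 counts to 4, 3 and 3 counts (log2 fold change -4.00, edgeR adjusted p = 9.99e-05, -3.40 without control replicate 3, and -6.15 with panel scaling).

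Tnfrsf18, Tnfrsf9 and Tnfrsf1b had similar log2 fold changes. Tnfrsf18 (GITR) had 35.2, 34.7 and 42.3 CPM with the control label and 200, 192 and 215 CPM with the Batf-deficient label (log2 fold change 2.43, SE 0.12, edgeR adjusted p = 4.52e-09). For Tnfrsf9 (4-1BB), with a promoter shown above, the values were 26.4, 21.6 and 29.7 against 128, 127 and 128 CPM (2.30, SE 0.13, edgeR adjusted p = 2.27e-08). Tnfrsf1b (TNFR2), the member with the most counts, had 78.3, 82.4 and 81.9 against 388, 397 and 431 CPM (2.33, SE 0.10, edgeR adjusted p = 1.03e-09). All 3 receptors were apart between the groups in every library. With panel scaling they were at 0.24, 0.11 and 0.12, with edgeR adjusted p = 0.0812, 0.448 and 0.287, so that none passed. For Tnfrsf1b the panel-scaled groups overlapped, at 164, 189 and 168 against 178, 192 and 198 CPM. Tnfrsf18 passed with 4 of the 15 reduced panels and the other 2 genes with none.

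Cd27 and Fas did not pass with TMM factors. Cd27, a costimulatory receptor of lymphocytes that is bound by CD70, was at 6.50, 3.78 and 12.7 CPM in the labelled control against 5.54, 5.83 and 6.20 CPM. The second group lay inside the range of the first (log2 fold change -0.39, SE 0.41, edgeR adjusted p = 0.425), and without control replicate 3 the value was 0.21. Fas, the death receptor, was at 10.3, 7.79 and 12.5 against 12.2, 10.1 and 13.5 CPM, again with overlap (0.23, SE 0.26, edgeR adjusted p = 0.447). With panel scaling both were lower in the labelled Batf-deficient libraries, Cd27 at -2.56 (edgeR adjusted p = 7.69e-05) and Fas at -1.96 (edgeR adjusted p = 1.45e-05), near the -2.18 of the median gene. B cell markers, a cell type that can express both, summed to 94.5 to 126 CPM in the labelled control and 27.1 to 34.0 CPM in the labelled Batf-deficient libraries over 8 genes. With TMM factors 7 of the 8 were lower and 1, Cd79b, did not pass (19.8 against 25.1 CPM, group means). Cd79b made up most of the sum in the labelled Batf-deficient libraries. With panel scaling all 8 were lower. The epithelial and acinar markers given above had larger sums in the labelled control and were higher there too. The part of all these cells in the values of Cd27 and Fas was not tested.

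Among the ligands, Tnfsf4 encodes OX40 ligand. It had only 14, 6 and 19 counts in the labelled control and 56, 45 and 102 counts in the labelled Batf-deficient libraries, or 1.32, 0.343 and 0.987 against 7.76, 6.39 and 8.21 CPM. The groups were apart at this low level (log2 fold change 3.10, SE 0.50, edgeR adjusted p = 0.000164). With panel scaling it was at 0.93 (SE 0.53, edgeR adjusted p = 0.117), so the call was lost.

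Fasl, the ligand of Fas and an effector of cytotoxic lymphocytes, was at 13.9, 16.1 and 10.96 CPM in the labelled control against 34.0, 34.1 and 30.1 CPM, with no overlap. The log2 difference was 1.26 (SE 0.19, edgeR adjusted p = 8.42e-05), and panel scaling turned it to -0.95 (SE 0.22, edgeR adjusted p = 0.0015). Fasl was the only one of the 7 called members whose direction turned. Tnfsf10 encodes TRAIL, a death receptor ligand. It was at 12.1, 14.3 and 15.8 CPM against 18.02, 18.5 and 13.6 CPM, with overlap (0.24, SE 0.21, edgeR adjusted p = 0.338), and at -1.96 with panel scaling (edgeR adjusted p = 5.31e-06).

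**Figure D3:**
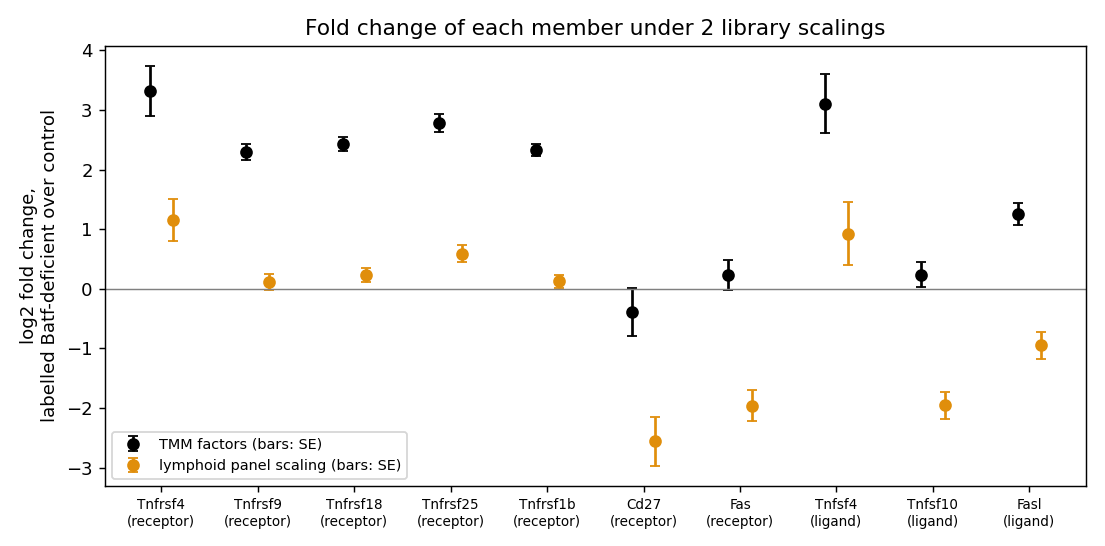
Log2 fold change (labelled Batf-deficient over labelled control) of each member with TMM factors in black and with lymphoid panel scaling in orange, with bars for SE. Panel scaling lowers every member by about the same amount, leaving Tnfrsf4 at 1.16 and Tnfrsf25 at 0.59 and taking Fasl from 1.26 to -0.95.

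Ratios within a library do not depend on its scaling. They can still depend on RNA of other tissue, such as that of the epithelial markers given above, and its part was not tested. The ratio of Fasl to Fas counts was 1.35, 2.07 and 0.876 in the labelled control and 2.77, 3.36 and 2.22 in the labelled Batf-deficient libraries, higher in all 3 of the latter (log2 difference 1.03). The ratio of Tnfrsf18 to its neighbour Tnfrsf4 went the other way, from 7.25, 13.3 and 4.15 to 3.68, 3.13 and 3.41 (log2 difference -1.12). For Tnfrsf4 over its ligand gene Tnfsf4 the groups overlapped, at 3.55, 7 and 10.1 against 6.95, 9.46 and 7.65 (log2 difference 0.34). An exact permutation test (two-sided) over the 6 libraries gave p = 0.10, 0.10 and 0.70 (0.15, 0.15 and 0.70 adjusted over the 3 ratios). A comparison of 3 libraries against 3 cannot go below 0.10.

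Levels of different members were compared as CPM per kb of annotated exon. In the labelled control libraries Tnfrsf18 was highest at 24.5 ± 2.81 CPM per kb, then Tnfrsf1b at 21.2 ± 0.582 and Tnfrsf25 at 17.1 ± 3.92 (SD, n = 3). Library ranges of Tnfrsf1b and Tnfrsf25 overlapped. Tnfrsf9 (9.51 ± 1.501), Fasl (7.05 ± 1.34), Fas (4.94 ± 1.15), Tnfrsf4 (4.29 ± 2.86), Cd27 (3.29 ± 1.96) and Tnfsf10 (2.67 ± 0.355) followed, each overlapping its neighbour, and Tnfsf4 was lowest at 0.480 ± 0.269 CPM per kb. In the labelled Batf-deficient libraries the first 7 places were apart from each other: Tnfrsf18 (133 ± 7.93), Tnfrsf25 (118 ± 2.54), Tnfrsf1b (106 ± 5.96), Tnfrsf9 (46.9 ± 0.125), Tnfrsf4 (43.6 ± 3.37), Fasl (16.9 ± 1.17) and Fas (5.79 ± 0.840 CPM per kb). Tnfsf4 (4.05 ± 0.513), Tnfsf10 (3.17 ± 0.511) and Cd27 (2.52 ± 0.141 CPM per kb) came last, each overlapping its neighbour.

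As shares of the 10 members' summed CPM per kb, Tnfrsf18, Tnfrsf1b and Tnfrsf9 were close in both groups, at 25.9% ± 0.742 and 27.7% ± 0.929, 22.5% ± 2.91 and 22.1% ± 0.476, and 10.002% ± 0.741 and 9.79% ± 0.315 in the labelled control and labelled Batf-deficient libraries. Tnfrsf25 took 17.8% ± 1.57 and 24.6% ± 0.681, and Tnfrsf4 took 4.30% ± 2.31 and 9.08% ± 0.509. The share of Fas went from 5.16% ± 0.636 to 1.20% ± 0.149, that of Cd27 from 3.32% ± 1.54 to 0.524% ± 0.0134, and that of Tnfsf10 from 2.82% ± 0.324 to 0.664% ± 0.126. The share of Fasl went from 7.62% ± 2.33 to 3.53% ± 0.357. For the last 6 genes named, of the 10 members, the libraries of the groups did not overlap. Shares have no rate over all genes to set beside this, and on CPM the groups did not overlap for 71.2% of all genes tested. Shares depend on each other and on no library scaling, and they were not tested. The part of other tissue RNA in them was not tested either.

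**Figure D4:**
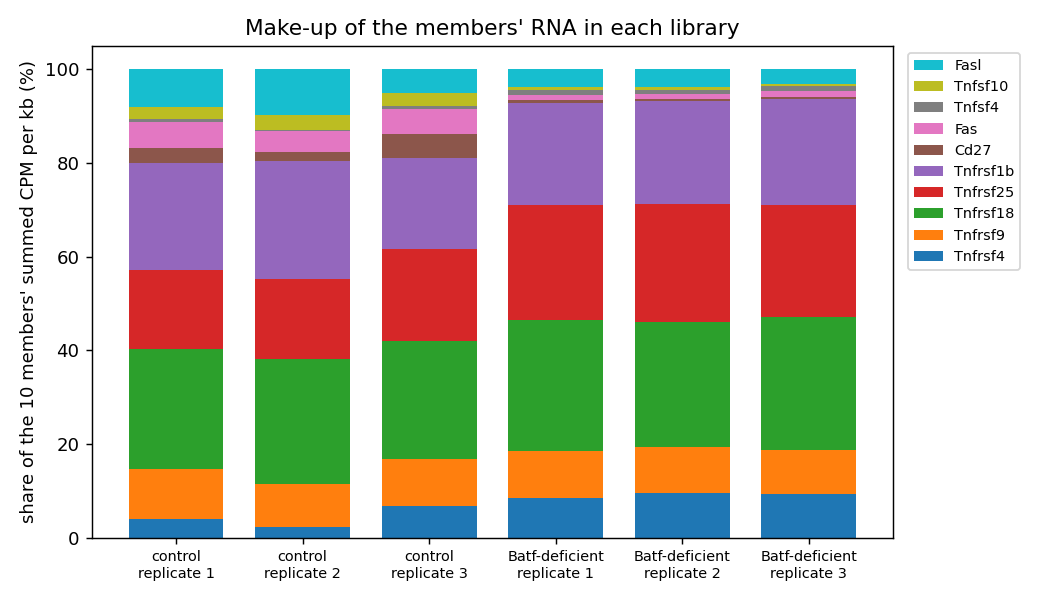
Share (%) of each member in the 10 members' summed CPM per kb, as a stacked bar for each library. Tnfrsf18 and Tnfrsf1b keep similar shares in all 6 libraries, Tnfrsf25 and Tnfrsf4 take more in the labelled Batf-deficient libraries, and Fas, Cd27, Tnfsf10 and Fasl take less.

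The rest of the family was read from a fixed list. Beside its counts and those of the lists below stand the shares of all genes tested. These were 30.2% higher and 34.1% lower with TMM factors, and 2.45% higher and 83.7% lower with panel scaling. Of 15 other ligands, 12 were tested: 8 were higher, 2 lower and 2 did not pass with TMM factors (median 1.86), and 4 were higher and 6 lower with panel scaling (median -0.32). Tnf, which signals through TNFR2 and TNFR1, was at 9.33, 9.90 and 8.98 CPM against 134, 135 and 146 CPM, and stayed higher with panel scaling (3.88 and 1.68). Another pair of ligands followed: Tnfsf14 (LIGHT, the ligand of HVEM and of the lymphotoxin β receptor) at 4.2 ± 1.46 against 41.4 ± 5.78 CPM and Tnfsf9 (4-1BB ligand) at 4.90 ± 2.09 against 39.8 ± 4.59 CPM (SD, n = 3 each). Their log2 fold changes were 3.28 and 2.99, and 1.10 and 0.79 with panel scaling, and both passed under both scalings. Both panel-scaled values lay within the range of the panel genes. Tnfsf13 (APRIL), a survival factor for plasma cells, had 63, 160 and 118 counts in the labelled control and 7, 0 and 0 counts in the labelled Batf-deficient libraries (edgeR adjusted p = 0.000809), and was lower with panel scaling too (edgeR adjusted p = 7.74e-06).

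Of 21 other receptors, 20 were in the table and 17 tested, with 5 higher, 8 lower and 4 not past the threshold with TMM factors (median -1.04), and 1 higher and 14 lower with panel scaling (median -3.25). Of all genes, 83.7% were lower with panel scaling, with a median of -2.18. Tnfrsf26 went from 14, 31 and 69 counts to 296, 244 and 412 counts (log2 fold change 3.97, and 1.80 with panel scaling, the only receptor of this list to stay higher). Tnfrsf22, a decoy receptor for TRAIL, was at 1.95 and at -0.25 with panel scaling. Tnfrsf22, Tnfrsf23 and Tnfrsf26 are similar neighbouring genes that could share reads. Relt had 1.09 (edgeR adjusted p = 0.0327) and -1.09 with panel scaling, and its call was lost without control replicate 2 (0.80) and without Batf-deficient replicate 1 (1.12) or 3 (0.75).

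Among the listed receptors with a mean of at least 20 counts, the 3 with the largest decreases are best known from other cells. Tnfrsf12a (the TWEAK receptor of epithelium and stroma) fell from 85.0 ± 17.2 to 8.64 ± 0.753 CPM (log2 fold change -3.29, and -5.48 with panel scaling). Ngfr, the low-affinity neurotrophin receptor of nerve and stroma, had 33, 63 and 33 counts against 1, 2 and 4 (-3.40 and -5.56), and Tnfrsf17 (BCMA of plasma cells) had 32, 56 and 71 counts against 3, 4 and 3 (-3.05 and -5.21). Beside them, stromal markers summed to 938 to 982 CPM in the labelled control and 60.1 to 65.6 CPM in the labelled Batf-deficient libraries over 9 genes, of which Des had no count in the latter. With TMM factors 8 of these 9 were lower and 1, Pdgfrb, did not pass (15.5 against 21.9 CPM, group means), and all 9 were lower with panel scaling. Plasma cell markers summed to 8428 to 8741 against 773 to 805 CPM over 6 genes, most of it from Igha and Jchain. With TMM factors 4 of the 6 were lower and 2 were higher, Sdc1 (59.95 against 198 CPM) and Prdm1 (21.6 against 46.6 CPM, group means), and with panel scaling all 6 were lower. The part of these cells in the receptor values was not tested.

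Signalling genes downstream of the receptors were read from a further pair of lists. Of 24 adaptors and NF-κB branch genes, 15 were higher, 2 lower and 7 did not pass with TMM factors (median 0.86), and 1 was higher and 21 lower with panel scaling (median -1.36). Traf4, an adaptor that can bind GITR, was at 29.4 ± 3.46 against 237 ± 3.31 CPM (log2 fold change 3.01, and 0.81 with panel scaling). Tnfaip3, which encodes the NF-κB feedback inhibitor A20, and Traf1, an NF-κB-induced adaptor of TNFR2 and 4-1BB, were at 2.39 and 2.17, and with panel scaling at 0.19 and -0.028, where neither passed. The members lower with TMM factors were Map3k7 (TAK1, a kinase upstream of NF-κB) at -0.65 (-2.86 with panel scaling) and Tradd (the TNFR1 and DR3 adaptor) at -0.57 (edgeR adjusted p = 0.0221, and -2.78 with panel scaling). Tradd lost its call without control replicate 1 (-0.48) or 2 (-0.47) and without Batf-deficient replicate 2 (-0.57).

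Of 10 genes that carry out or restrain death receptor signalling, 2 were higher, 3 lower and 5 did not pass with TMM factors (median -0.23), and all 10 were lower with panel scaling (median -2.43). Panel scaling also made 83.7% of all genes lower, with a median of -2.18. The higher genes both restrain Fas-induced death: Faim at 1.27 and Cflar (c-FLIP) at 0.53, which panel scaling turned to -0.94 and -1.66. Bid, a BH3-only protein cut by caspase-8, had 126, 180 and 200 counts against 4, 6 and 18 (-3.43, and -5.61 with panel scaling). Mlkl, the effector of necroptosis, had 81, 55 and 216 counts against 11, 8 and 17 (-2.44 and -4.60). Epithelial markers, given above, were higher in the same libraries as Bid and Mlkl, and their part was not tested.

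**Figure D5:**
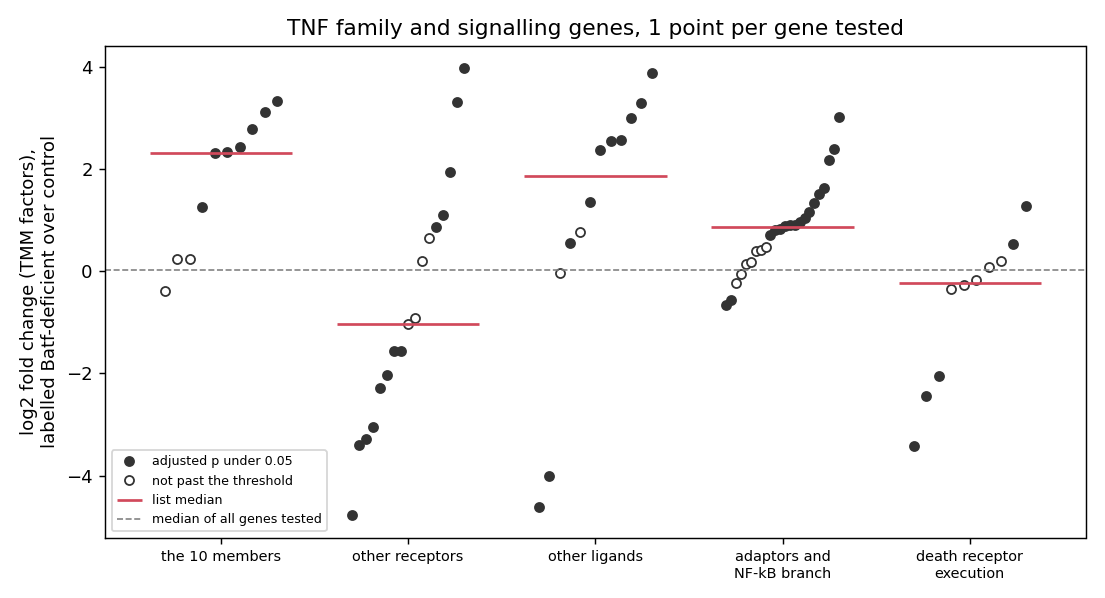
Log2 fold change (TMM factors) of every tested gene of the members and of 4 fixed lists, with filled points for genes past the threshold, a red line for each list's median and a dashed line for the median of all genes. The members (median 2.31) and the other ligands (1.86) lie mostly above 0 and the other receptors (-1.04) spread to both sides; with panel scaling the medians are 0.12, -0.32 and -3.25.

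For each member, the gene with the most similar profile was found among 72 others of these lists and the members, as the smallest Euclidean distance between centred log2 CPM values over the 6 libraries. Ltb, a lymphotoxin subunit, was nearest to both Tnfrsf18 (0.167) and Tnfrsf25 (0.372). Tnfrsf18 was nearest to Tnfrsf9 (0.274), Traf1 to Tnfrsf1b (0.216) and Faim to Fasl (0.133). Tnfsf14 was nearest to Tnfrsf4 (0.833) and Traf4 to Tnfsf4 (1.002), at larger distances. The members that did not pass were nearest to Fas (for Cd27, 0.962), Sharpin (for Fas, 0.368) and Traf5 (for Tnfsf10, 0.283). These distances describe the 6 libraries and were not tested.

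Markers of regulatory T cells, which express OX40, GITR, 4-1BB and TNFR2, were also read. Their 5 genes summed to 139 to 168 CPM in the labelled control and 397 to 470 CPM in the labelled Batf-deficient libraries. With TMM factors 4 of the 5 were higher and 1, Lrrc32, was lower (22.7 against 4.43 CPM, group means), and with panel scaling 2 were higher and 3 lower. Foxp3, the defining gene, was at 0.0943 CPM in control replicate 1, at 0 counts in control replicates 2 and 3, and at 3.05, 4.69 and 4.83 CPM in libraries labelled Batf-deficient. The T cell receptor gene Trac was at 16.1 against 55.1 CPM and Trdc at 22.1 against 212 CPM (group means). Apart from Lrrc32, the markers named here were higher in the same libraries as the 5 receptors, and their part was not tested.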

How the data were processed

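The authors deposited 1 table of raw counts per gene symbol for 6 Smart-seq2 libraries, whole numbers that differ in total. Per the submitters' processing notes the build is mm10. For the aligner, counter, annotation and strand setting: not given in the sources used here. Groups came from the sample titles, and no per-sample column was left unused.

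The test was run with edgeR 4.0.16 (R 4.3.3): filterByExpr (minimum count 10, 15261 genes kept), TMM factors, a robust quasi-likelihood fit with group as the only term, two-sided tests, and Benjamini-Hochberg adjustment over every tested gene (threshold 0.05). The code was tested on simulated data. Smart-seq2 has no molecular identifiers, so counts are reads. At the library totals, 3 counts correspond to 0.173 to 0.365 CPM.

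Alternatives were library totals, the 15-gene lymphoid panel, no filter, DESeq2 1.42.0, a replicate block, each library left out, and Batf-deficient replicates 1 and 2 summed. Panels with 1 gene left out and the block with panel scaling were added after seeing the data. Ratios used counts plus 0.5.

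The members and lists were chosen with earlier results of these data known. Genes named beyond the members and Batf were, in each list, up to 3 higher and 3 lower genes past the threshold with the largest change and a mean of at least 20 counts, and the nearest profiles. A gene that the rule names is not reported here. Camta1, Gm16008, Vamp1, Xist, single marker and panel genes, and the genes of low count in the closing section were named after their values were seen.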

Additional observations from a re-analysis of the deposited data

How the results depend on the processing

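Library totals gave 3048 higher and 6488 lower genes, and panel scaling 374 higher and 12780 lower, or 388 and 12526 with the replicate block. For the members, panel scaling gave 2 higher and 4 lower, with and without the block. Each other setting run for these counts, left-out libraries included, gave 7 members higher and 0 lower; leaving out 1 library gave 3603 to 4705 higher and 5149 to 5451 lower genes.

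These log2 fold changes turned with panel scaling, given without and then with the block: Batf (-0.91 and -0.91), Fas (-1.96 and -1.96), Tnfsf10 (-1.96 and -1.96), Fasl (-0.95 and -0.92), Tnfrsf22 (-0.25 and -0.24), Relt (-1.09 and -1.06), Traf1 (-0.028 and -0.026), Faim (-0.94 and -0.92) and Cflar (-1.66 and -1.66). With 1 panel gene left out, Fas ran from -2.07 to -1.86, Tnfsf10 from -2.07 to -1.85 and Fasl from -1.06 to -0.84. With library totals Fas and Tnfsf10 were at -0.14 each, and Relt (0.72) and Cflar (0.15) lost their calls. Cd27 turned to 0.21 without control replicate 3, the highest of its values with 1 library left out, which began at -0.72 without control replicate 2. The ratio of Tnfrsf4 to Tnfsf4 ran from -0.079 (without control replicate 1) to 0.67 in log2 difference, that of Fasl to Fas from 0.72 to 1.34 and that of Tnfrsf18 to Tnfrsf4 from -1.53 to -0.69. Summing Batf-deficient replicates 1 and 2 ended the calls of Relt and Tradd. The cause of these changes was not tested.

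Shared replicate numbers did not pair the libraries: same-numbered libraries had correlations of 0.00449, 0.0209 and 0.0304 between their deviations from the group means, each under 0.1, and control replicate 1 correlated more with Batf-deficient replicate 3 (0.00938). The replicate block without panel scaling gave 4603 higher and 5091 lower genes. It changed no call of Batf, the members or the genes that the naming rule took from the lists. For the log2 ratios, the mean difference within numbers equals the unpaired one by arithmetic, so it cannot show whether pairing matters. Depth limits Tnfsf4, with as few as 6 counts, and the lowest receptors and ligands.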

Other observations

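Several family members were near the limit of detection. The CD27 ligand gene Cd70 had no count in the labelled control libraries, which allows up to 0.330, 0.195 and 0.173 CPM by library totals, and 1, 3 and 5 counts in the labelled Batf-deficient libraries. The GITR ligand gene Tnfsf18, which lies between Tnfsf4 and Fasl on chromosome 1, had no count in 4 libraries and 2 and 3 counts in Batf-deficient replicates 2 and 3. Both ligand genes were thus too low to compare at this depth. Tnfrsf8 (CD30), the neighbour of Tnfrsf1b, had 45, 1 and 0 counts in the labelled control and 3, 3 and 8 counts in the labelled Batf-deficient libraries, so that a single control library held most of its reads. These genes did not pass the filter on low counts, whereas Tnfrsf14 and Eda2r did and were called with TMM factors. Tnfrsf14 (HVEM), the receptor for LIGHT, had 5, 11 and 0 counts against 32, 32 and 24 (log2 fold change 3.31, edgeR adjusted p = 0.00551). It did not pass with panel scaling (1.11, edgeR adjusted p = 0.262). Eda2r, a receptor for ectodysplasin, had 9, 17 and 37 counts against 0, 0 and 1 (-4.78, edgeR adjusted p = 0.00164, and -6.68 with panel scaling).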
